A study of Mus musculus with 7 samples.

Results

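Nuclear genes for the respiratory chain, ATP synthase and the mitochondrial ribosome were compared between mouse G1E cells with and without Lockd. The rule that picked the genes used their symbols, taking those whose names begin with Nduf, Uqcr, Cox4 to Cox8 or Atp5, the genes Sdha, Sdhb, Sdhc and Sdhd, and those named Mrpl or Mrps with a number. They were 160 of the 22180 genes that had a probeset with exactly 1 annotated symbol. The members were 34 genes of complex I, 8 complex I assembly factors named Ndufaf, 4 of complex II, 8 of complex III, 17 of complex IV, 18 of complex V, 43 named Mrpl and 28 named Mrps. The Mrpl and Mrps genes are called the large and small subunits of the mitochondrial ribosome here by name alone. A gene with several probesets was taken from the one with the highest mean over all 7 arrays. Of the 160, 2 are annotated as pseudogenes, Atp5c1-ps and Uqcrh-ps1. A further 16 genes that fit the name patterns, among them Ndufs6, Cox6c and Uqcr10, share their probesets with another symbol and were not analysed here.

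G1E is an immature erythroid precursor line from mouse embryonic stem cells that lacks functional GATA1, and both groups share that background. The deletion group was G1E cells in which Lockd, a long non-coding RNA gene beside Cdkn1b, had been removed with CRISPR/Cas9, measured on 4 arrays. The control group was G1E cells labelled as wild type for Lockd, measured on 3 arrays. The samples are described as clones, with nothing on whether each replicate was its own clone or culture, so p-values measure only the spread between these arrays, which may be technical. A deletion takes away DNA along with its transcript, and the labels give no agent or age beyond the growth medium of the line.

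The respiratory chain passes electrons from NADH through complex I, or from succinate through complex II, to complex III and then to oxygen at complex IV. Complex V, the ATP synthase, uses the proton gradient that complexes I, III and IV build. A few of the subunits are made inside the organelle by its own ribosome, whose proteins are nuclear products, so subunits from both genomes must be assembled together. Erythroid precursors need active mitochondria for heme synthesis and lose them as they mature.

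The values are log2 expression values from the RMA method, in which a difference of 1 is a doubling. In the check of the deletion, Lockd averaged 4.89 ± 0.48 on deletion arrays and 7.91 ± 0.12 on control arrays, and Cdkn1b, the p27 gene, averaged 8.03 ± 0.15 and 9.18 ± 0.12 (SD, n = 4 and n = 3). Deletion replicate 3 read 4.17 for Lockd, beside 5.09 to 5.15 on the other deletion arrays. Correlations between the 7 arrays were 0.993 to 0.996, and control replicate 2 had the most extreme loading on the first principal component. All 8 erythroid and 3 progenitor markers of the line exceeded the median level over genes, as did 2 of the 6 mast cell, 2 of the 4 megakaryocyte, 0 of the 5 myeloid, 0 of the 3 lymphoid and 2 of the 4 stromal and endothelial genes. The erythroid list holds Gata1, at an overall mean of 9.25, and its probeset signal does not show functional GATA1, which the line lacks. The mean of the 6 mast cell markers deviated by -0.27 to 0.23 on deletion arrays and by -0.44 to 0.35 on control arrays, with control replicate 2 the lowest. The mean of the 3 lymphoid markers deviated by -0.12 to 0.016 on deletion arrays and by 0.032 to 0.092 on control arrays. Single markers with an unadjusted limma p under 0.05 and separate groups were the erythroid Tfrc at -0.17 (SE 0.060), the megakaryocyte Gp9 at -0.33 (SE 0.11) and the myeloid Mpo at 0.24 (SE 0.083). The part of these markers in the results below was not tested.

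Promoters of the members held certain motif letters, which the choice by name did not use, more often than those of protein-coding genes at large. Windows from 250 bases before to 50 bases after the start site, from RefSeq on the build GRCm38.p6, were found for 134 of the 160 members, 145 windows in all. Motifs were searched on both strands for the factors that background knowledge ties to nuclear genes of mitochondria: GCGCA and GCGC with any 1 base between them for NRF1, CCGGAAG for ETS factors such as GABPA, and AANATGGCG for YY1. The NRF1 letters were in 20.0% of member windows, against 6.38% of the windows of protein-coding genes and 4.60% of all 32851 windows. The ETS letters were in 29.0% of member windows, against 11.6% and 8.86%, and the YY1 letters in 14.5%, against 3.12% and 2.38%. Any of the 3 was in 53.8% of member windows, against 18.8% and 14.2%, so many member windows held none. The YY1 letters hold ATG and so can overlap a start codon inside the window. The windows of members also had a median GC content of 58.3%, against 56.3% for protein-coding genes and 52.7% for all.

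**Figure D1:**
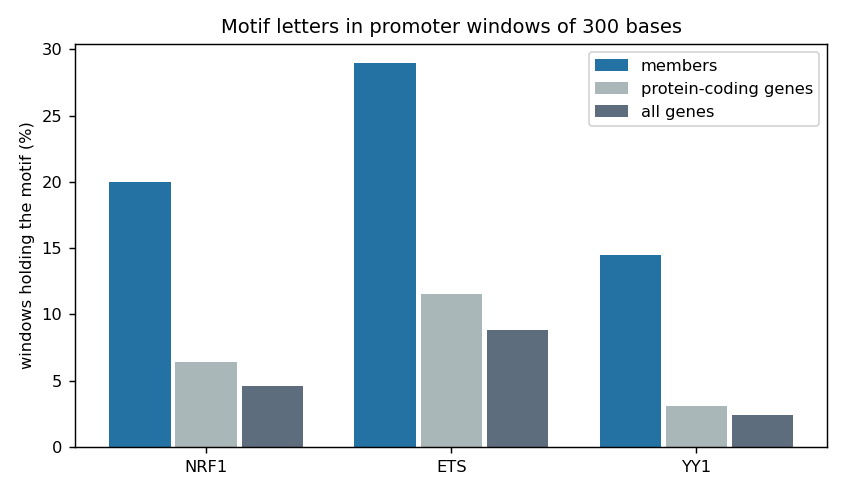
Share of promoter windows (percent) that hold the letters of the NRF1, ETS and YY1 motifs, in 145 windows of members, in windows of all protein-coding genes and in windows of all genes. The members' bar is the tallest for each motif, at 20.0%, 29.0% and 14.5%.

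Of the sets, complex I held the ETS letters in 12.5% of 32 windows, beside 11.6% for protein-coding genes, and the small ribosomal subunit in 42.3% of 26. Complex V held the NRF1 letters in 33.3% of 18 windows, complex IV in 7.69% of 13. Complex IV held any of the 3 motifs in 23.1% of its windows, beside 18.8% for protein-coding genes. Promoters from complex II and the ribosome are shown as examples of each arrangement, in the direction of transcription, with the matched letters in capitals. That of Sdha (chr13:74350191-74350490, minus strand) has the NRF1 letters at 3 places, that of Sdhd (chr9:50603800-50604099, minus strand) has 1 NRF1 and 1 ETS match, and that of Mrpl52 (chr14:54426659-54426958, plus strand) has 2 ETS matches, all on GRCm38.p6.
Sdha: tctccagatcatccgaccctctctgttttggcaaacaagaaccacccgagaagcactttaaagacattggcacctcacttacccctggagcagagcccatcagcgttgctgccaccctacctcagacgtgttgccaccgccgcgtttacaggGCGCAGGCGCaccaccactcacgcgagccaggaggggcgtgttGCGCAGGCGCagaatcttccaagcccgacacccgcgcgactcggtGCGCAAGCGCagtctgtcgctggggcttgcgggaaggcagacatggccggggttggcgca
Sdhd: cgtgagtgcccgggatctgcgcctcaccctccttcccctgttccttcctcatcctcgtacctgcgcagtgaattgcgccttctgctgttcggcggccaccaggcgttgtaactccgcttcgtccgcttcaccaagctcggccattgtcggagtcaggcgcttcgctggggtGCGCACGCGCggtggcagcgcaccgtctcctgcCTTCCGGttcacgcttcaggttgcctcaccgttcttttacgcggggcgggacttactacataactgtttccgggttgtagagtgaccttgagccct
Mrpl52: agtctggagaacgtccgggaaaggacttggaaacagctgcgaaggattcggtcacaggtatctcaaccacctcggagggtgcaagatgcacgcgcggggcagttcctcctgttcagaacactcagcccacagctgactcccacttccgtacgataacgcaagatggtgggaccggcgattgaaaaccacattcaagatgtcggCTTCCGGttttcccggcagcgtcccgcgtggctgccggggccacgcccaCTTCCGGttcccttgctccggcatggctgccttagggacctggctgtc

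Members with and without these letters had close median differences between deletion and control cells. The median difference, deletion minus control, was 0.020 over the 42 members with the ETS letters and 0.020 over the 92 members without them. It was 0.018 over the 28 members with the NRF1 letters and 0.020 over the 106 without them. It was 0.026 over the 21 members with the YY1 letters and 0.020 over the 113 without.

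Almost all of the 160 members differed by little between deletion and control cells, and Ndufa4l2, grouped with complex I by its name, stood far from the rest. By limma, adjusted after Benjamini and Hochberg over all 23521 probesets, 0 members passed 0.05, where 0.0085% of all tested probesets did. The 2 probesets behind that share were those of Lockd and Cdkn1b, with limma adjusted p of 0.0162 and 0.0251. An unadjusted limma p under 0.05 was seen for 2 members, Ndufa4l2 lower and Cox7c higher. That is 1.25% of the members, where 4.61% of all genes had such a p, 2.37% lower and 2.24% higher. Groups that did not overlap were seen for 7 members, 2 lower and 5 higher, which is 4.38%, close to the 5.19% of all genes (2.54% lower and 2.65% higher). Ndufa4l2 alone differed by more than 0.25 in either direction, where 1114 of all 22180 genes, or 5.02%, did.

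The median difference of the 160 members was 0.018, beside 0.0054 for all genes, and 103 members were higher and 57 lower. That is 64.4% of the members higher, beside 52.2% of all genes. Centring each array on its own median lowers every difference by 0.024, and 64 members, or 40.0%, were then higher and 96 lower, beside 42.1% of all genes higher, with medians of -0.0056 and -0.018. The members were measured more tightly than most genes. Their median residual SD between arrays of the same group was 0.070, against 0.099 for all genes above the median level and 0.13 for all genes. The 95% intervals of 154 of the 160 lay within 0.5 of 0 on either side, so differences of 0.5 or more lay outside the interval for these genes. Of all genes, 90.1% had such an interval.

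**Figure D2:**
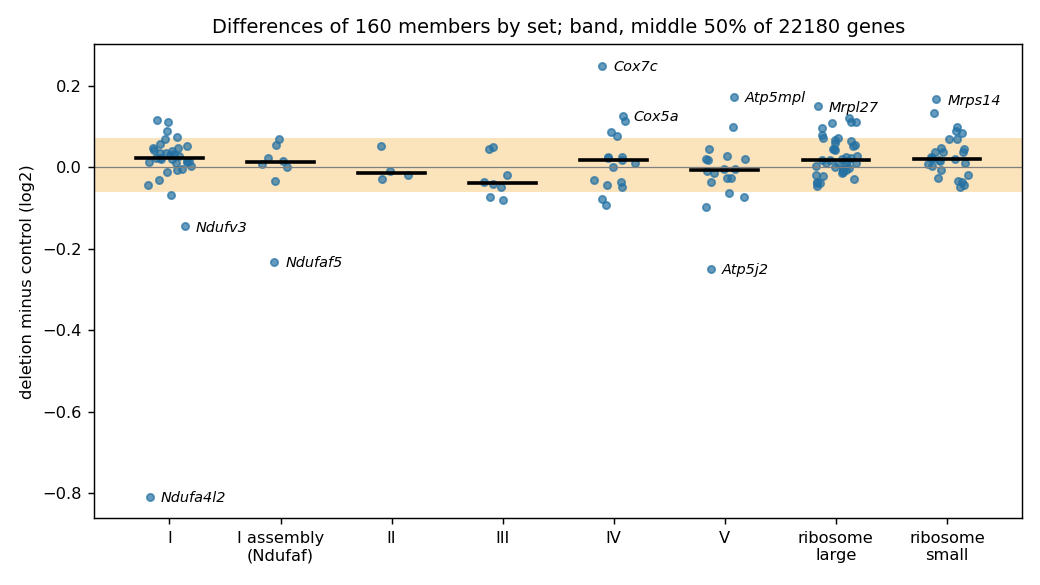
Difference between deletion and control cells (log2) of each of the 160 members, grouped by complex or ribosomal subunit. Points are genes, black lines are set medians and the shaded band spans the quartiles of all 22180 genes, -0.060 to 0.070. Ndufa4l2 lies at -0.81 and every other member between -0.25 and 0.25.

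Ndufa4l2 is a paralog of Ndufa4, whose protein is known as a subunit of complex IV, and only its name places it with complex I here. It is known as a target of hypoxia-inducible factors whose product lowers oxygen use. Its probeset read 9.96, 9.89, 9.18 and 9.77 in deletion replicates 1 to 4, and 10.40, 10.67 and 10.45 in control replicates 1 to 3. All 4 deletion arrays lay below all 3 control arrays, and deletion replicate 3 was the lowest by a wide margin. Ndufa4l2 averaged 9.70 ± 0.36 (SD, n = 4) in deletion cells and 10.51 ± 0.14 (SD, n = 3) in control cells. The difference was -0.81 (SE 0.18, 95% interval -1.22 to -0.40), a linear change of -42.9% with an interval of -57.1% to -24.1%. In limma the unadjusted p was 0.00177 and the adjusted p 0.969, so the difference did not pass. In bulk RNA, fewer cells with a transcript and less of it per cell cannot be told apart. With each array left out in turn, the unadjusted limma p of Ndufa4l2 ranged from 0.000254 to 0.00839. The smallest came without deletion replicate 3, its lowest array, where the difference was -0.63 and the adjusted p 0.712. The largest came without control replicate 2, where the difference was -0.73 and the adjusted p 0.938. Over all arrays the difference of Ndufa4l2 was the 23rd largest in size of the 22180 genes.

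The probeset of Ndufa4 itself read 11.35, 11.50, 11.44 and 11.43 in deletion replicates 1 to 4, and 11.38, 11.44 and 11.40 in control replicates 1 to 3. The arrays of the groups overlapped, and the difference was 0.022 (SE 0.065, 95% interval -0.13 to 0.17). Whether the differences of the paralogs themselves differ was not tested.

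**Figure D3:**
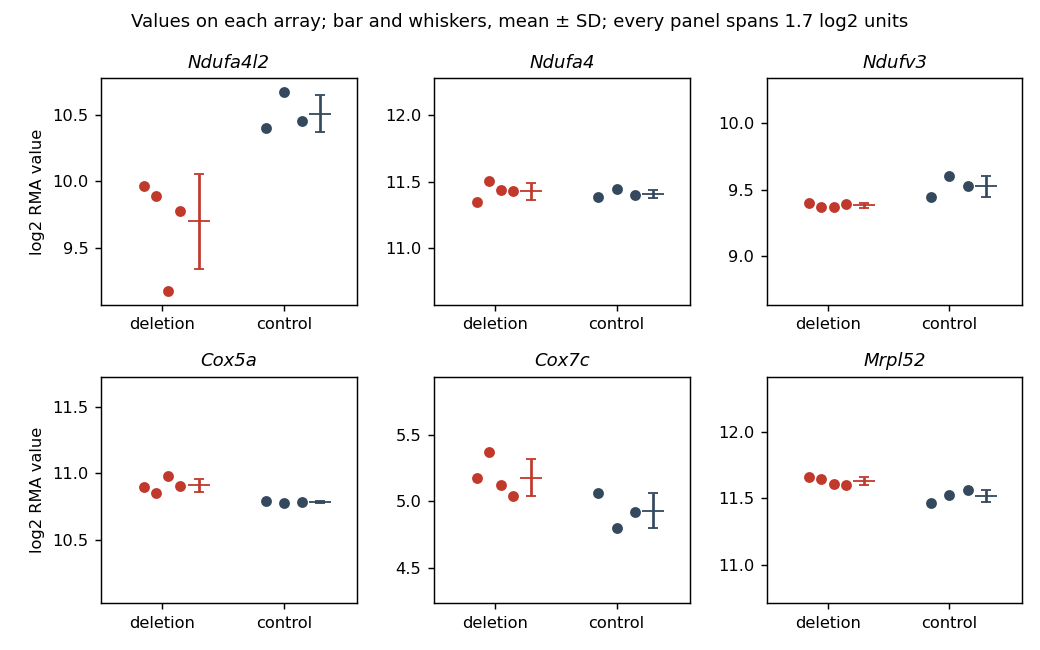
Log2 RMA values of 6 members on every array, deletion arrays left of control arrays, with the mean ± SD of each group (n = 4 and n = 3) and the same axis span in each panel. The deletion arrays of Ndufa4l2 lie between 9.18 and 9.96, below all control arrays, while the arrays of Ndufa4 overlap.

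Core subunits of complex I are those it shares with the bacterial enzyme, and the nuclear ones lie in the arm that takes electrons from NADH. The differences of the 6 nuclear core genes analysed ran from -0.0070 for Ndufv1, the NADH-binding subunit, to 0.021 for Ndufs3. Ndufv2 differed by 0.013 (SE 0.069), Ndufs7 by 0.015 (SE 0.058), Ndufs8 by 0.0019 (SE 0.061) and Ndufs1 by -0.0045 (SE 0.066). Their 95% intervals spanned -0.16 to 0.17 at most, and all 6 had groups that overlapped.

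Ndufv3, an accessory subunit of the NADH-oxidising arm, was the other complex I gene with lower, separate values. It read 9.40, 9.37, 9.37 and 9.39 in deletion replicates 1 to 4, and 9.45, 9.61 and 9.53 in control replicates 1 to 3. The deletion arrays were close together and the control arrays spread more widely above them. The difference was -0.15 (SE 0.064, 95% interval -0.29 to 0.0018), with a limma adjusted p of 0.999 (0.0523 unadjusted). The unadjusted limma p was 0.0205 with eBayes trend and robust, 0.0262 with probesets above the median level and 0.0323 without control replicate 1. In the other settings it was above 0.05. The difference was -0.11 without control replicate 2.

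The accessory genes Ndufs4 and Ndufa9, named after their values were seen, had deletion arrays above all control arrays, with differences of 0.11 (SE 0.062) and 0.057 (SE 0.058). Groups did not overlap for 11.8% of the complex I genes, 2 lower and 2 higher, beside 5.19% of all genes. Ndufb9, the brightest complex I probeset, differed by -0.012 (SE 0.064). The set's median was 0.022, with 26 of 34 genes higher. Once arrays were centred on their medians, 16 of 34 were higher, or 47.1%, beside 42.1% of all genes.

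The Ndufaf genes encode factors that build or modify complex I and are not part of the finished enzyme. Ndufaf5, which modifies the core subunit Ndufs7, averaged 6.86 ± 0.18 (SD, n = 4) in deletion and 7.09 ± 0.30 (SD, n = 3) in control cells. Its groups overlapped, and the difference was -0.23 (SE 0.15), with a limma adjusted p of 0.999 (0.157 unadjusted). It was -0.39 without control replicate 3, the lowest control array, and -0.090 without control replicate 2, the highest. Ndufaf8 differed by 0.069 (SE 0.075) and Ndufaf7, a methyltransferase, by 0.053 (SE 0.072). The 8 genes had a median of 0.012, with 5 higher, or 2 with centred arrays.

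Complex II, succinate dehydrogenase, is built from nuclear subunits alone and is also an enzyme of the citric acid cycle. The flavoprotein gene Sdha read between 11.23 and 11.28 on deletion arrays and between 11.18 and 11.24 on control arrays, a difference of 0.052 (SE 0.058). The iron-sulfur subunit gene Sdhb differed by -0.028 (SE 0.065). The membrane anchor genes Sdhc and Sdhd differed by -0.010 (SE 0.067) and -0.018 (SE 0.066). The groups overlapped for all 4 genes, and the 95% intervals lay between -0.18 and 0.19.

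Complex III passes electrons to cytochrome c. Uqcrfs1, the Rieske iron-sulfur protein gene, differed by -0.074 (SE 0.084), the core protein gene Uqcrc1 by 0.050 (SE 0.060) and Uqcrb, the brightest of the set, by -0.040 (SE 0.067). The groups overlapped for all 8 genes of the set, 6 of which were lower, with a median of -0.039. The mean deviation of the set on deletion arrays ran from -0.069 to 0.047, within the span of -0.070 to 0.080 on control arrays.

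Complex IV, cytochrome c oxidase, holds several small nuclear subunits that exist in tissue forms. Cox7c, a small subunit, read 5.17, 5.37, 5.12 and 5.04 in deletion replicates 1 to 4, and 5.06, 4.80 and 4.92 in control replicates 1 to 3. Deletion replicate 4 lay below control replicate 1, so the groups overlapped. The difference was 0.25 (SE 0.098, 95% interval 0.024 to 0.47), with a limma adjusted p of 0.999 (0.0338 unadjusted). The unadjusted p of Cox7c was above 0.05 with array weights, with centred arrays, and without control replicate 2, control replicate 3, deletion replicate 1 or deletion replicate 2, and the difference ran from 0.18 to 0.32 with an array left out. The probeset lay under 5.72, the median level of a gene here, and RMA values have no detection call.

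Cox5a, which sits on the matrix side of the enzyme, read 10.90, 10.85, 10.98 and 10.91 in deletion replicates 1 to 4, and 10.79, 10.77 and 10.78 in control replicates 1 to 3. The control arrays were nearly equal and all deletion arrays lay above them. The difference was 0.13 (SE 0.061, 95% interval -0.014 to 0.27), with a limma adjusted p of 0.999 (0.0710 unadjusted). The unadjusted limma p was 0.0104 with eBayes trend and robust and 0.0335 with probesets above the median level, and above 0.05 in the other settings. Cox5a was the one complex IV gene whose groups did not overlap, which is 5.88% of the set, beside 5.19% of all genes.

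The 95% intervals of all tissue forms of complex IV subunits included 0. For the subunits found in most tissues, the differences were 0.00085 (SE 0.070) for Cox4i1, 0.025 (SE 0.065) for Cox6a1, 0.023 (SE 0.070) for Cox6b1, 0.076 (SE 0.062) for Cox7a2 and 0.011 (SE 0.072) for Cox8a. For the heart and muscle forms, they were -0.048 (SE 0.12) for Cox6a2, -0.044 (SE 0.085) for Cox7a1 and -0.079 (SE 0.097) for Cox8b. Several of these signs turn with centred arrays or with an array left out.

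Cox4i2, a lung form that responds to oxygen, differed by 0.026 (SE 0.12, 95% interval -0.26 to 0.31). The testis forms Cox6b2, Cox7b2 and Cox8c differed by -0.038 (SE 0.18), -0.031 (SE 0.068) and 0.018 (SE 0.066), and Cox7b by 0.086 (SE 0.14). Cox7a2l, which joins complexes III and IV in supercomplexes, differed by -0.092 (SE 0.084), or by -0.0036 without control replicate 2. The probesets of Cox7b2, Cox8b and Cox8c, at overall means of 2.92, 4.74 and 3.67, lay below the median level of all genes, where background makes up more of an array signal. The set's median was 0.018, with 11 of 17 genes higher, or 7 with centred arrays (41.2%, beside 42.1% of all genes).

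**Figure D4:**
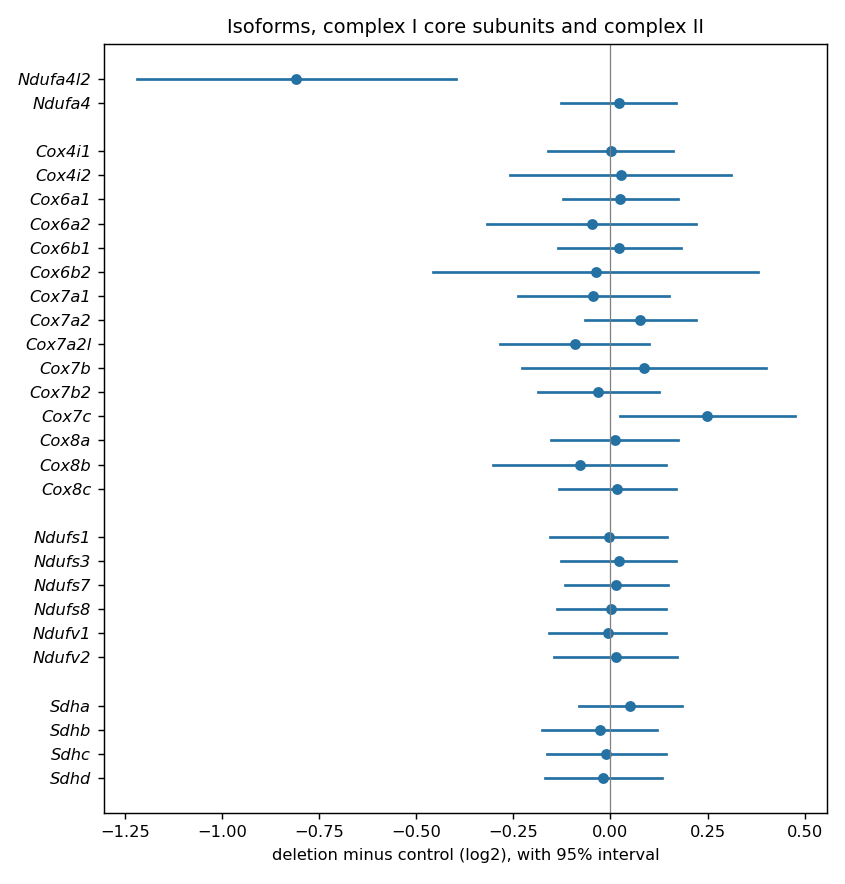
Difference between deletion and control cells (log2, point) with its 95% interval (line) for Ndufa4l2 and Ndufa4, the complex IV isoforms and Cox7c, 6 core subunits of complex I and the 4 subunits of complex II. The intervals of Ndufa4l2, from -1.22 to -0.40, and Cox7c, from 0.024 to 0.47, do not include 0, while those of the other genes shown do.

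Complex V makes ATP. Atp5b, the catalytic beta subunit gene and the brightest of the set, differed by -0.0036 (SE 0.059). The c subunit of the rotor ring comes from 3 genes with the same mature product, and Atp5g1, Atp5g2 and Atp5g3 differed by -0.037 (SE 0.11), 0.044 (SE 0.066) and -0.0095 (SE 0.075). All 18 genes of the set had groups that overlapped, with 11 lower and a median of -0.0075.

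The widest differences of complex V were in small membrane subunits. Atp5mpl averaged 11.39 ± 0.15 (SD, n = 4) in deletion and 11.22 ± 0.071 (SD, n = 3) in control cells, a difference of 0.17 (SE 0.093), with a limma adjusted p of 0.999 (0.100 unadjusted). Deletion replicates 2 and 4, at 11.51 and 11.53, were the high arrays, and the other deletion arrays lay among the controls. Atp5j2, the f subunit gene, averaged 6.18 ± 0.16 (SD, n = 4) in deletion and 6.43 ± 0.37 (SD, n = 3) in control cells, a difference of -0.25 (SE 0.17). Its control replicate 2 read 6.86, above the other control arrays at 6.19 and 6.24, and without that array the difference was -0.035.

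The RNA of the mitochondrial ribosome genes showed the same narrow range. On the chosen probesets, none of the 71 genes had an unadjusted limma p under 0.05, where 4.61% of all genes did. The median difference was 0.019 in the large subunit, with 30 of 43 genes higher, and 0.021 in the small subunit, with 21 of 28 higher. With centred arrays 19 and 13 were higher, and the medians were -0.0049 and -0.0028. That is 45.1% of the 71 genes higher, beside 42.1% of all genes, whose median was then -0.018.

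Mrpl52 and Mrpl21, both genes of the large subunit, had deletion arrays above all control arrays. They were the only ribosomal genes whose groups did not overlap, which is 2.82% of the 71, beside 5.19% of all genes. Mrpl52 read 11.66, 11.65, 11.61 and 11.60 in deletion replicates 1 to 4, and 11.47, 11.52 and 11.56 in control replicates 1 to 3, a difference of 0.11 (SE 0.061). Mrpl21 read 9.11, 8.98, 9.08 and 8.97 in deletion replicates 1 to 4, and 8.86, 8.94 and 8.94 in control replicates 1 to 3, a difference of 0.12 (SE 0.067). The gap between the groups was small in each gene, and the unadjusted limma p was 0.101 for Mrpl52 and 0.103 for Mrpl21, with an adjusted p of 0.999 for each. With another variance model, eBayes trend and robust, the unadjusted limma p of Mrpl52 was 0.0106 and the adjusted p again 0.999.

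In the small subunit, Mrps7, the gene of a head protein that binds ribosomal RNA, differed by 0.13 (SE 0.081). It averaged 9.76 ± 0.11 (SD, n = 4) in deletion and 9.63 ± 0.089 (SD, n = 3) in control cells. Mrps24 differed by 0.098 (SE 0.065), and Mrps15, the brightest of the set, by 0.019 (SE 0.062). The groups of these 3 genes overlapped. The widest intervals of the ribosome, named after their values were seen, were those of Mrps14, at -0.39 to 0.72, and Mrpl27, at -0.30 to 0.60. In both, control replicate 3 lay far below the other controls, at 5.34 in each gene, beside 6.34 and 6.46 for Mrps14 and 6.20 and 6.06 for Mrpl27 in control replicates 1 and 2.

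Between control arrays, the ribosomal genes moved together more than they differed between the groups. Averaged over the 71 genes, the deviation from each gene's own mean was -0.0020, 0.0078, 0.046 and -0.0016 in deletion replicates 1 to 4, and -0.031, 0.053 and -0.071 in control replicates 1 to 3. The mean over arrays was 0.013 ± 0.023 (SD, n = 4) and -0.017 ± 0.063 (SD, n = 3) in deletion and control cells, a difference smaller than the spread between control arrays. Of the 71 genes, 49 had their highest control value on replicate 2 and 40 their lowest on replicate 3. Of all 22180 genes, 7913 and 7132 did so, and of the 133 genes in the related lists described below, 79 and 67. Averaged over those 133 genes, the deviation was -0.026, 0.060 and -0.049 in control replicates 1 to 3. The pattern was thus not particular to the ribosomal genes. Control replicate 2 is also the array with the extreme loading. Without control replicate 2 the median differences of the large and small subunits were 0.051 and 0.059, and without control replicate 3 they were 0.0053 and 0.0025.

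**Figure D5:**
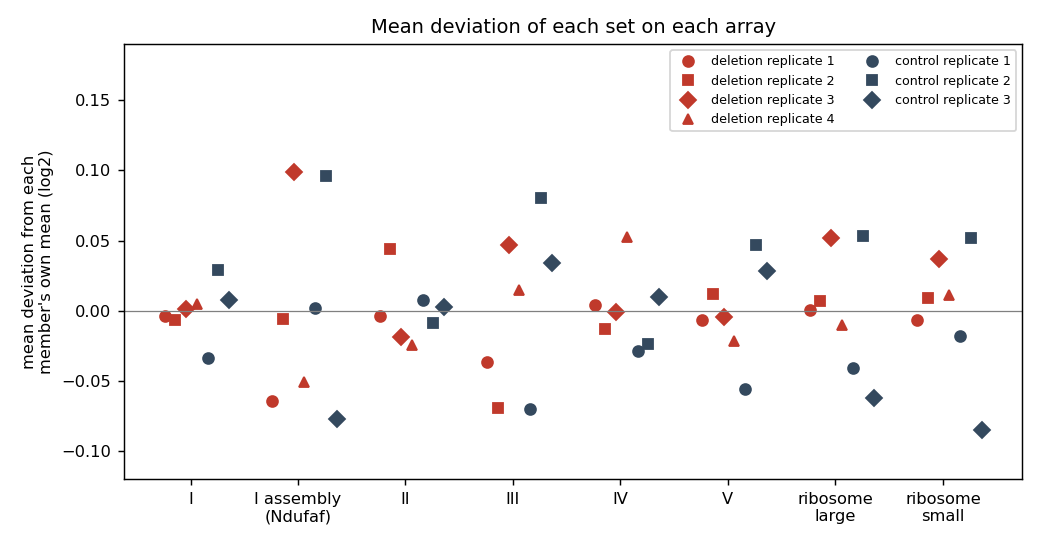
Mean deviation (log2) of the members of each set from their own means over all arrays, on each of the 4 deletion and 3 control arrays. The deletion and control arrays overlap in every set, and for the ribosomal subunits control replicate 2 is the highest and control replicate 3 the lowest of all arrays.

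None of the 8 sets had a mean that separated the groups. For complex I the set mean was -0.00083 ± 0.0051 (SD, n = 4) in deletion and 0.0011 ± 0.032 (SD, n = 3) in control cells. Over its 33 genes without Ndufa4l2, a setting chosen after seeing the data, it was 0.0096 ± 0.014 and -0.013 ± 0.029, and the groups still overlapped. For complex IV it was 0.011 ± 0.029 (SD, n = 4) and -0.014 ± 0.021 (SD, n = 3), and for complex V -0.0050 ± 0.014 (SD, n = 4) and 0.0066 ± 0.055 (SD, n = 3). In complex V the deletion arrays lay closer to each other than the control arrays, and in complex IV the spreads were alike.

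By position, 9 members lie on chromosome 6, the chromosome of Lockd and Cdkn1b. Their differences ran from -0.048 for Mrps35 to 0.089 for Ndufa5, with a median of 0.022. Ndufa9 alone had groups that did not overlap, which is 11.1% of the 9, beside 5.19% of all genes.

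Where a member had more than 1 probeset, 18 genes in all, the probesets gave differences of opposite sign for 6. The widest gap was 0.31, for Ndufa11, an accessory subunit of complex I, at 0.023 (SE 0.067) on its bright probeset and -0.29 (SE 0.12) on its dim one. Mrps5 differed by 0.048 (SE 0.065) on its bright probeset and 0.27 (SE 0.076) on its dim one. The unadjusted limma p of the dim probeset was 0.0379 for Ndufa11 and 0.00636 for Mrps5, with an adjusted p of 0.999 for each. Both genes were named after their values were seen.

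The RNA of subunits made inside the mitochondrion differed by under 0.05 in either direction. The 10 measured genes, ND1 to ND6 with ND4L, CYTB, COX1 and COX3, had a median difference of -0.014, with 9 lower, ranging from -0.045 for ND4L (SE 0.069) to 0.020 for ND3, and all groups overlapped. COX1, the catalytic subunit of complex IV, differed by -0.036 (SE 0.062). Apart from ND6, at an overall mean of 11.25, these genes had means of 13.12 to 13.86, near the array maxima of 13.94 to 14.01. Whether differences are narrowed so near the top of the scale was not tested. Deletion replicate 2 held the lowest deletion value for 9 of the 10 genes, with a mean deviation of -0.084, beside 0.010 to 0.027 on the other deletion arrays, and 0.00039 to 0.026 on control arrays. Without deletion replicate 2, a setting chosen after seeing the data, the median was 0.0095, with 3 genes lower and 7 higher.

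Factors around the chain and the ribosome gave 0 genes past the adjusted threshold in limma. Of 18 regulators of mitochondrial transcription and biogenesis, 10 were higher, with a median of 0.036. Gabpb1, the partner of the ETS factor GABPA, was the one with an unadjusted limma p under 0.05, at 0.0436. That is 5.56% of the list, near the 4.61% of all genes. Gabpb1 read 7.51, 7.65, 7.79 and 7.69 in deletion replicates 1 to 4, and 7.44, 7.49 and 7.50 in control replicates 1 to 3, a difference of 0.18 (SE 0.077) with an adjusted p of 0.999. All deletion arrays lay above the control arrays, while Gabpa itself differed by -0.019 (SE 0.069). The NRF1 gene, Nrf1, differed by 0.10 (SE 0.071) and Tfam, which packages and transcribes mitochondrial DNA, by -0.0094 (SE 0.083).

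The other lists stayed close to 0. Of 38 further assembly factors 20 were higher, with a median of 0.0032, and the complex III factor gene Uqcc3 differed by 0.11 (SE 0.067) and Coa4 by 0.12 (SE 0.078). Of 21 translation factors and ribosome builders 12 were higher, with a median of 0.016, and the GTPase gene Mtg2 differed by 0.13 (SE 0.074) and the rRNA methyltransferase gene Mrm2 by -0.11 (SE 0.068). The 17 citric acid cycle genes had a median of 0.0014, with Suclg2 at 0.067 (SE 0.059) and Dlst at -0.061 (SE 0.067). None of the genes in these 3 lists had an unadjusted limma p under 0.05, where 4.61% of all genes did.

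Of 20 import genes 15 were higher, with a median of 0.038. Timm10 and Timm8a1, small chaperones of the intermembrane space, differed by 0.18 (SE 0.089) and 0.17 (SE 0.087). In this list 0 genes had an unadjusted limma p under 0.05, where 4.61% of all genes did. Among 5 subunits whose names lie outside the patterns, Gadd45gip1 of the ribosome differed by 0.075 (SE 0.078) and the cytochrome c gene Cycs by 0.033 (SE 0.065).

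The list of mitophagy and hypoxia genes was lower in all 4 measured members, with a median of -0.25, and 2 of them, Bnip3 and Higd1a, had an unadjusted limma p under 0.05, where 2.37% of all genes were lower at that p. Their adjusted p did not pass, and the list was drawn up with earlier results of these data known, so it is not independent evidence of its direction. Bnip3, a mitophagy receptor gene, read 9.32, 9.22, 9.16 and 9.27 in deletion replicates 1 to 4, and 9.90, 9.86 and 9.57 in control replicates 1 to 3. Higd1a, a mitochondrial protein gene that hypoxia raises, read 7.97, 8.14, 7.95 and 8.05 in deletion replicates 1 to 4, and 8.40, 8.51 and 8.30 in control replicates 1 to 3. In both, as in Ndufa4l2, the deletion arrays lay below the control arrays. The differences were -0.54 (SE 0.092) for Bnip3 and -0.38 (SE 0.080) for Higd1a, with limma adjusted p of 0.855 and 0.969. Pdk1, a kinase that hypoxia also raises and that shuts pyruvate dehydrogenase, differed by -0.12 (SE 0.092) with groups that overlapped. Fundc1, another mitophagy receptor gene, differed by -0.046 (SE 0.11), also with groups that overlapped.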

How the data were processed

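The platform was the Affymetrix Mouse Gene 2.0 ST array, with 4 deletion and 3 control arrays of G1E cells. The authors deposited log2 expression values. Per the submitters' processing notes, these came from Affymetrix Expression Console by RMA, which corrects background, sets arrays to a common distribution and summarises probesets. Software version and probeset build: not given in the sources used here. Groups came from sample titles. The number of arrays limits the precision.

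Of 41345 probesets, the platform annotation gave 23521 exactly 1 symbol. Only those were tested; 1814 had several symbols and 16010 were not listed. Differences are deletion minus control, fitted in R 4.3.3 with limma 3.58.1 (lmFit and eBayes, both groups, no covariate), two-sided, with Benjamini-Hochberg adjustment over all 23521. The fit was tested on simulated data. Promoter letters and counts were made in Python 3.11.15.

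The rule for named genes took members with an unadjusted p under 0.05, in each set the 2 smallest p and the brightest probeset, the tissue isoforms, the core subunits of complex I, complex II, and the 2 smallest p of each related list. The members and lists were chosen with earlier results of these data known. Alternatives were leaving out each array, replicate numbers as a block, array weights, centring, a level filter, all probesets, another variance model and the dimmest probeset of a gene.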

Additional observations from a re-analysis of the deposited data

Results flagged for a closer look

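Of 63 values checked for a deletion array far from the others, 47 named members, 8 sets and 8 related lists, 5 had such an array, where chance gives about 1 in 20. The ratio is the gap of the farthest array to its neighbour over the range of the 4 deletion arrays. Mrps15 had a ratio of 0.927, with deletion replicate 4 at 11.02 and the others at 10.94. Cox7a2l had a ratio of 0.862, with replicate 4 at 8.92. Ndufs3 had a ratio of 0.861, with replicate 3 at 8.18, and Ndufs7 one of 0.839, with replicate 1 at 11.78. The mean of the mitochondrially encoded subunits had a ratio of 0.848, with replicate 2 the lowest. Lockd itself, not among the 63 values, had a ratio of 0.939, with replicate 3 the lowest.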

How the results depend on the processing

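No member passed an adjusted limma p of 0.05 under any alternative tried, and Ndufa4l2 stayed lower in each, at -0.90 to -0.63 with an array left out. It had an unadjusted p under 0.05 each time an array was left out. The number of members with an unadjusted limma p under 0.05, 2 in all, was 1 with array weights, 1 with centred arrays, 7 with eBayes trend and robust, 4 with the dimmest probeset of each gene, and 1 to 3 with an array left out (1 without control replicate 2, deletion replicate 1 or deletion replicate 2). Where 1 was left, it was Ndufa4l2, and Cox7c was the call lost. The 7 with eBayes trend and robust were Ndufa4l2, Cox7c, Cox5a, Cox5b, Ndufv3, Atp5mpl and Mrpl52. With probesets above the median level, the members under 0.05 were Ndufa4l2, Cox5a and Ndufv3. The count was 2 with the replicate block on title numbers and 3 with the block on description numbers. By design, the title block takes no difference from deletion replicate 4, which has no control of its number. The description block compares only deletion replicate 1 with control replicate 2 and deletion replicate 2 with control replicate 3. Same-numbered arrays by title had deviations that correlated at -0.098 to 0.061, so those numbers were not taken as pairing the arrays. The median difference of complex I was -0.0015 with centred arrays and -0.0013 with the replicate block on description numbers, and that of complex II was 0.030 with that block. With an array left out, the median of complex II was -0.029 to 0.012 and that of complex IV -0.0076 to 0.052. Signs of small differences turned as follows, and beyond the arrays that each setting compared the cause was not tested. With array weights the difference was 0.0096 for Atp5b, 0.027 for Atp5g3, -0.0039 for Cox4i2, 0.059 for Cox6b2, 0.0074 for Ndufs1 and 0.022 for Ndufv1. With centred arrays, by construction of a common shift, the difference was -0.023 for Cox4i1, -0.00038 for Cox6b1, -0.013 for Cox8a, -0.0056 for Cox8c, -0.0047 for Mrps15, -0.0020 for Ndufa4, -0.0028 for Ndufs3, -0.0089 for Ndufs7, -0.022 for Ndufs8 and -0.010 for Ndufv2. With the block on description numbers the difference was -0.070 for Cox4i1, -0.00014 for Cox4i2, -0.020 for Cox6b1, 0.017 for Cox7a1, -0.10 for Cox7b, 0.0082 for Cox7b2, -0.013 for Ndufs3, -0.021 for Ndufs8, -0.033 for Ndufv2, 0.054 for Sdhc and 0.0053 for Sdhd. With the block on title numbers the difference was 0.032 for Atp5g1, -0.0076 for Cox4i1, -0.063 for Cox4i2, -0.0079 for Cox8c, -0.00060 for Mrps15, 0.021 for Ndufs1 and 0.00070 for Ndufv1. With an array left out the difference ranged from -0.062 to 0.043 for Cox4i1, -0.0069 to 0.065 for Cox6b1, -0.022 to 0.054 for Cox8a, -0.055 to 0.013 for Ndufb9, -0.018 to 0.032 for Ndufs8, -0.033 to 0.038 for Ndufv2, -0.042 to 0.014 for Sdhc, -0.069 to 0.0099 for Sdhd. On the same basis it ranged from -0.025 to 0.0098 for Atp5b, -0.068 to 0.025 for Atp5g3, -0.0069 to 0.059 for Cox6a1, -0.15 to 0.033 for Cox6a2, -0.19 to 0.11 for Cox6b2, -0.0079 to 0.050 for Cox8c, -0.029 to 0.023 for Ndufs1, -0.054 to 0.031 for Ndufv1. On the same basis it ranged from -0.13 to 0.0039 for Uqcrfs1, -0.11 to 0.054 for Atp5g1, -0.063 to 0.11 for Cox4i2, -0.0054 to 0.042 for Mrps15, -0.055 to 0.0027 for Sdhb, -0.0034 to 0.049 for Ndufa4, -0.088 to 0.015 for Cox7a1, -0.012 to 0.035 for Ndufs3. The median SE of a member's difference was 0.070, wider than most of these differences, and dim probesets such as those of Cox7b2 and Cox8c limit what can be seen.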
